A study of Mus musculus with 6 samples.

Results

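The genes described here build the machinery that carries proteins into mitochondria and shapes the cristae. They were read in RNA-seq of a brown fat cell line put through adipogenic differentiation, with and without MICT1. A gene was counted when its symbol began with Timm, Tomm, Immp, Grpel, Pmpc, Chchd or Micos, with Mtx and a digit, or was Pam16 or Samm50. This rule found 46 of the 13283 genes in the table. All 46 passed the filter on low values (10 or more in 3 or more of the libraries), as did 12507 genes in all. The symbol rule also takes in genes with other roles, namely Tomm34, Timmdc1, several Chchd genes and the antisense transcript Tomm6os, and it leaves out partners such as Immt and Hspa9, which were counted apart.

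The cells were of 1 immortalized brown fat (BAT) line from mouse that carries Cas9. The 3 control libraries (Scr, genotype WT in the sample labels) came from cells transduced with scrambled sgRNA, and the 3 MICT1 KO libraries (MICT1-CRISPR KO in the labels) from pools of knockout cells. MICT1 is a microprotein of brown fat. All 6 cultures went through adipogenic differentiation and received 10 µM forskolin, an activator of adenylyl cyclase, for 6 h on day 6, so no library shows the genes without forskolin. The labels do not tell which of the study's knockout pools each MICT1 KO library came from, and nothing in them separates cultures further, so p-values measure the spread between these libraries of 1 cell line. As MICT1 was not analysed here, the knockout was not checked on the targeted gene.

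Nearly all mitochondrial proteins are made in the cytosol. The TOM complex of the outer membrane takes them in, SAM inserts barrel proteins into that membrane, and MIA and the small TIM chaperones receive proteins in the intermembrane space. TIM22 places carriers in the inner membrane, and TIM23 with its motor pulls preproteins into the matrix, where MPP removes their presequences. MICOS holds the necks of the cristae, the folds of the inner membrane that carry the respiratory chain. Brown adipocytes are packed with mitochondria rich in cristae.

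Values were read as the estimated reads per gene, divided by the authors by a size factor for each library. On that reading they correspond to 15444100 to 17921200 reads per library. A log2 fold change is the MICT1 KO minus the Scr mean of log2(value + 1), given with its standard error (SE), and a gene is called lower or higher, or said to have fallen or risen, at an adjusted p under 0.05 by limma-trend with Benjamini-Hochberg adjustment over all genes tested. Libraries of 1 group correlated at 0.987 to 0.990 across genes and libraries of different groups at 0.929 to 0.940. The marker genes of fat cells moved with the groups. All 10 adipocyte markers were lower in MICT1 KO libraries, from Adipoq and Cfd, the most reduced, to Pparg, the least reduced. Their summed level was 7526 to 9092 CPM in Scr and 899 to 1299 CPM in MICT1 KO libraries, and its part in the results below was not tested. In cultures read in bulk, fewer differentiated cells and less RNA per cell cannot be told apart. Of 8 brown adipocyte markers only Ucp1, Cox7a1 and Ppargc1a were in the table, with sums of 7.31 to 9.50 CPM in Scr and 7.95 to 10.8 CPM in MICT1 KO libraries, and the others were not analysed here. Ucp1, the uncoupling protein that defines brown fat, was at few reads in every library, from 25.1 ± 4.96 (SD, n = 3) in Scr down to 4.10 ± 4.55 (SD, n = 3). Of the 6 macrophage markers 2 were in the table, at sums of 4.97 to 7.98 and 6.19 to 8.68 CPM. Preadipocyte and fibroblast markers (6 of 7 in the table) summed to 2153 to 2496 CPM in Scr and 2951 to 3135 CPM in MICT1 KO libraries, but they went both ways. Of the 5 tested, Col1a1 (0.77, SE 0.060) and Ly6a (1.39, SE 0.10) were higher and Dlk1 (-3.47, SE 0.19) and Pdgfra (-0.19, SE 0.076) lower in log2 fold change, with a median of -0.047. The others, with few markers in the table, were endothelial (1 of 4, 0.369 to 0.725 and 1.59 to 2.03 CPM) and muscle markers (2 of 4, 3.79 to 4.79 and 3.37 to 5.74 CPM).

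Import and cristae genes were mostly lower without MICT1. Of the 46 members 26 (56.5%) were called lower, against 28.3% of all genes tested, and 2 (4.35%) higher, against 28.5%, while 18 did not pass. Only Chchd10, Pam16, Tomm6os and Chchd6 fell at least 2-fold, 4 of 46, against 720 of the 12507 genes tested. Neither Chchd7 nor Micos10, the genes that rose, reached 2-fold, which 999 of all genes tested did. The median log2 fold change of the members was -0.27, against -0.0053 over all genes tested. In 26 members (56.5%) the 3 MICT1 KO values all lay below the 3 Scr values, against 31.2% of all genes tested, and in 2 (4.35%) they all lay above, against 30.9%. One library weighed on the median. Without KO replicate 2 it was -0.21, with 21 members lower and 3 higher, and with each of the other libraries left out it lay between -0.29 and -0.26. With each of the 6 libraries left out in turn, 19 of the 26 lower members and both higher members kept their call.

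**Figure D1:**
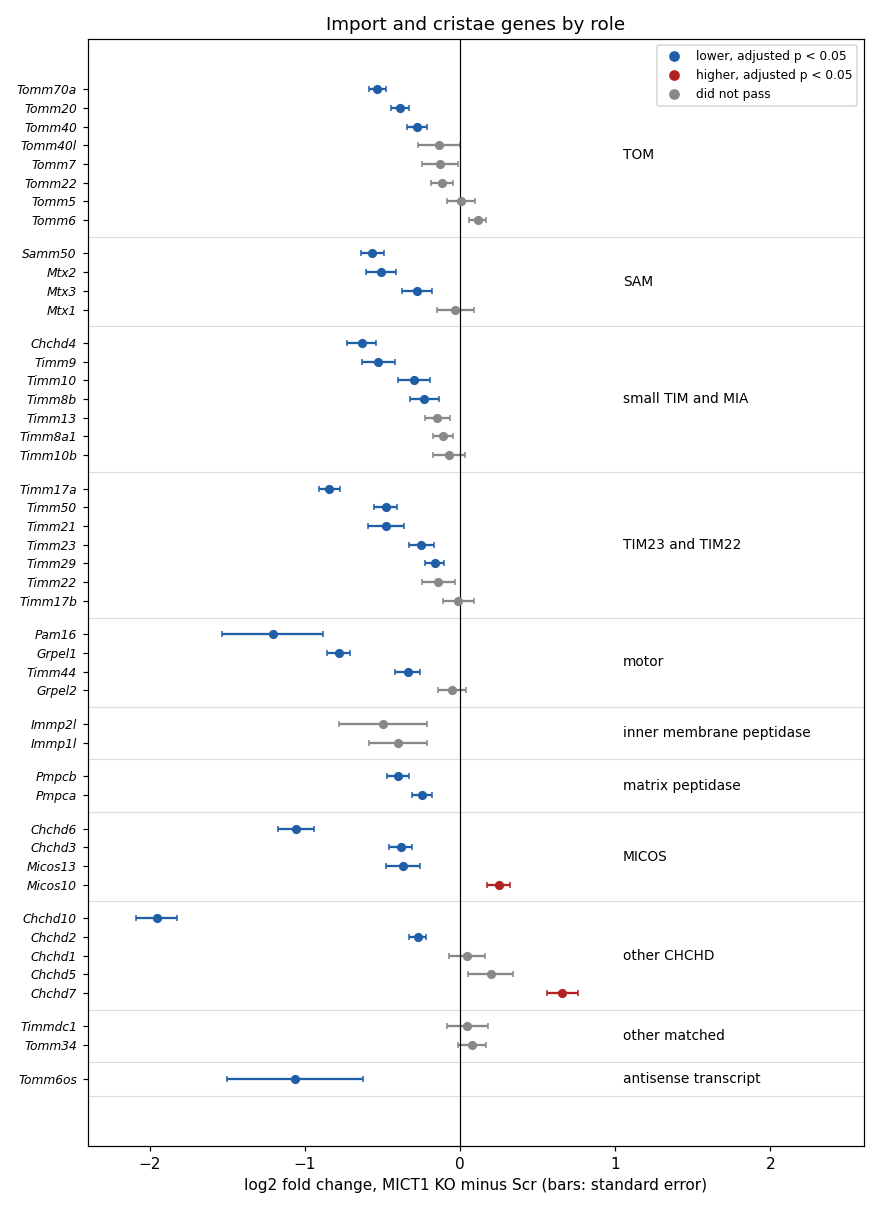
Log2 fold change of each of the 46 members (horizontal axis, MICT1 KO minus Scr, bars are standard errors), grouped by role, with genes lower at an adjusted p under 0.05 in blue, higher in red and others in grey. Points lie to the left of 0 in 38 of 46 members, and Chchd10 (-1.95) and Chchd7 (0.66) are at the ends.

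Levels are given per length, as RPKM from the length of all annotated exons of a gene in GENCODE vM21. A comparison of levels between genes depends on that length. Among the members the Scr mean ran from 0.577 to 153.9 RPKM with a median of 15.9, and 42 of 46 were at or above 4. At the top stood Chchd2 at 154 ± 3.38 (SD, n = 3) and Tomm6 at 153 ± 3.73 (SD, n = 3) RPKM, which did not differ beyond their spread. Both ranks are uncertain, since Tomm6 shares 84.2% of its exon bases with other genes and the reads of Chchd2 were whole in only 1 library. Timm8a1 at 84.3 ± 1.71 (SD, n = 3) and Tomm20 at 74.5 ± 5.14 (SD, n = 3) RPKM followed. At the low end were Tomm40l at 2.78 ± 0.218 (SD, n = 3), Immp2l at 2.64 ± 0.444 (SD, n = 3), Pam16 at 1.46 ± 0.371 (SD, n = 3) and Tomm6os at 0.577 ± 0.127 (SD, n = 3) RPKM. Tomm40l and Immp2l did not differ in level beyond their spread.

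Before the single genes, their promoters show what the members share in sequence. RefSeq promoter windows on GRCm38.p6, from 250 bases before to 50 bases after a gene's start, were found for 9995 of the tested genes and for 40 of the 46 members, without Tomm40l, Tomm7, Timm21, Grpel2, Chchd2 and Chchd7. Each window was searched on both strands for 6 motifs known from promoters of mitochondrial genes or of genes that answer to cAMP. The ETS motif CCGGAAG stood in the windows of 18 of the 40 members (45.0%), against 20.3% of tested genes and 9.93% of all genes with a window. It stood in 11 of the 24 members called lower (45.8%) and in 7 of the other 16 (43.8%). The YY1 motif AANATGGCG was found in 6 members (15.0%, against 6.04% of tested genes) and the E-box CACGTG in 8 of 40, against 11.9% of tested genes. The NRF1 motif, GCGCA and then any base and GCGC, stood in 4 members (10.0%, against 11.7% of tested genes), Tomm20, Chchd4, Timm8b and Pam16. All 4 were called lower, as were 24 of all 40 members with a window, 4 of the 6 with the YY1 motif and 6 of the 8 with the E-box. Of the 1173 tested genes with the NRF1 motif 384 were called lower, beside 2856 of all 9995 tested genes with a window. The ERR motif TCAAGGTCA stood in 1 member, Timm8b, against 0.290% of tested genes, and the cAMP response element TGACGTCA in 0 of 40, against 3.60%. An ETS match can overlap another on the opposite strand, and such matches were counted as 1 window. A match is a string of letters and not a measured binding site. The median GC content of the windows was 58.3% in the members and 61.0% in tested genes.

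The 4 windows printed here show these motifs in 3 members that fell and in 1 that rose, with motif matches in capitals and the rest in lower case, 5′ to 3′ on the strand of the gene. Tomm70a (chr16:57121464-57121763, plus strand) fell and holds the ETS motif on each strand. Tomm20 (chr8:126945872-126946171, minus strand) fell and holds the E-box and, closer to the start, the NRF1 motif. Timm8b (chr9:50603651-50603950, plus strand) holds the ERR, ETS and NRF1 motifs in that order. Micos10 (chr4:139130988-139131287, minus strand, 1 of its 2 windows) rose and holds the ETS motif in 2 copies, read on the same strand. In all 4 the last 50 bases follow a start that RefSeq gives.
Tomm70a: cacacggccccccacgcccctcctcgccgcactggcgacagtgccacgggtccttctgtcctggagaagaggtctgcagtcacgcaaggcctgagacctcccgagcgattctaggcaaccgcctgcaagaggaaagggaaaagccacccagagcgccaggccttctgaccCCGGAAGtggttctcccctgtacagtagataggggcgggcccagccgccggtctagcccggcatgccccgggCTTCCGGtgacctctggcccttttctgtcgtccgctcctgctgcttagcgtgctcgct
Tomm20: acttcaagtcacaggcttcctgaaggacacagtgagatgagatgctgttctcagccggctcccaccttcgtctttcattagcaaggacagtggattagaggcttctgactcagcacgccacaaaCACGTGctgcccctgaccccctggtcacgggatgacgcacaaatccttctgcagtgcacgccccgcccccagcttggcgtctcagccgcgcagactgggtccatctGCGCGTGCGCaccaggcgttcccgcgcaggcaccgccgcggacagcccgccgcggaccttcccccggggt
Timm8b: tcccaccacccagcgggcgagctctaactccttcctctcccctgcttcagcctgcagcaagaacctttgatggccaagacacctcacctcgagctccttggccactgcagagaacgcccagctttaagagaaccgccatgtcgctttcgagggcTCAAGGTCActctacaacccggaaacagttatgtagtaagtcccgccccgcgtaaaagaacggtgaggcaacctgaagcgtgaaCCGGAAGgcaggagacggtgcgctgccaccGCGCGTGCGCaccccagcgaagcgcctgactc
Micos10: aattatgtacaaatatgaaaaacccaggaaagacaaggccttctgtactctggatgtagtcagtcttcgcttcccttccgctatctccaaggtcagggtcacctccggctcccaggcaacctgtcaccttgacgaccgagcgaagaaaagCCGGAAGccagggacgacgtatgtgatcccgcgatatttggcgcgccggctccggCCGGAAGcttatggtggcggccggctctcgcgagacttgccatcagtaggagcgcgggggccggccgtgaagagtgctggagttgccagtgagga

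In the TOM complex Tomm70a, Tomm20 and Tomm40 fell, and the other 5 genes did not pass the test. Tomm70a (chromosome 16, from 57121714 to 57154530, RefSeq on GRCm38 here and below), the receptor for carrier proteins with internal signals, read 5620.0, 5869 and 5971 (Scr) against 4094, 3842 and 4135 (MICT1 KO). No MICT1 KO library came near a Scr library, and the log2 fold change was -0.53 (SE 0.054, limma-trend adjusted p = 3.66e-08), a fall of 30.9%. Tomm20 (chromosome 8, from 126930664 to 126945921), the receptor for presequences, went from 5985 ± 471 (SD, n = 3) in Scr down to 4572 ± 210.5 (SD, n = 3). Its libraries read 5467, 6099.6 and 6387 (Scr) against 4743, 4337 and 4635 (MICT1 KO), without overlap, and its log2 fold change was -0.39 (SE 0.061, limma-trend adjusted p = 1.57e-05). Tomm40 (chromosome 7, from 19701313 to 19715442), the channel itself, read 2276, 2422 and 2395 (Scr) against 1989, 1785 and 2097 (MICT1 KO). Again no MICT1 KO value reached the Scr range, and the log2 fold change was -0.28 (SE 0.065, limma-trend adjusted p = 0.00123).

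Tomm22, the central receptor that ties the complex together, had all 3 MICT1 KO values below the Scr values, the highest of them at 1572 against a lowest Scr value of 1573, and a log2 fold change of -0.12 (SE 0.070, limma-trend adjusted p = 0.162). The small subunits Tomm5, Tomm6 and Tomm7 stabilize the complex. Their log2 fold changes were 0.0068 (SE 0.088), 0.11 (SE 0.057) and -0.13 (SE 0.11), with overlapping groups. Tomm6 passed only with KO replicate 2 left out (0.15, adjusted p = 0.0472 from limma-trend), as a higher gene. Tomm40l, a relative of the channel, read 219, 228 and 255 (Scr) against 197, 215 and 227 (MICT1 KO). Its groups overlapped at a log2 fold change of -0.13 (SE 0.13). Exons of Tomm6 and Tomm40l share 84.2% and 64.3% of their bases with exons of other genes, so their values are uncertain, and the reads of Tomm6 were not whole in 1 library.

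Of the 4 SAM genes 3 were called lower. Samm50 (chromosome 15, from 84192240 to 84216083), the barrel at the heart of SAM, read 1251, 1089 and 1219 (Scr) against 801, 797 and 803 (MICT1 KO). The MICT1 KO values were almost equal to each other and all well below Scr, with a log2 fold change of -0.57 (SE 0.075, limma-trend adjusted p = 1.70e-06). Mtx2 (chromosome 2, from 74825812 to 74876748), a metaxin bound to Samm50, read 631, 654 and 788 (Scr) against 514, 457 and 477 (MICT1 KO). Its groups did not overlap either, and its log2 fold change was -0.51 (SE 0.10, limma-trend adjusted p = 0.000151). Mtx3, another metaxin, read 909, 729.5 and 859.9 (Scr) against 609, 734 and 717 (MICT1 KO). Here the groups overlapped, and the log2 fold change of -0.28 (SE 0.095, limma-trend adjusted p = 0.0175) lost its call without Scr replicate 1, Scr replicate 3 or KO replicate 1 (adjusted p of 0.106, 0.0581 and 0.0949). Mtx1, the first metaxin described, read 419, 563 and 577 (Scr) against 568, 495 and 455 (MICT1 KO). These overlap, the log2 fold change was -0.030 (SE 0.12), and 30.1% of its exon bases lie in exons of other genes.

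**Figure D2:**
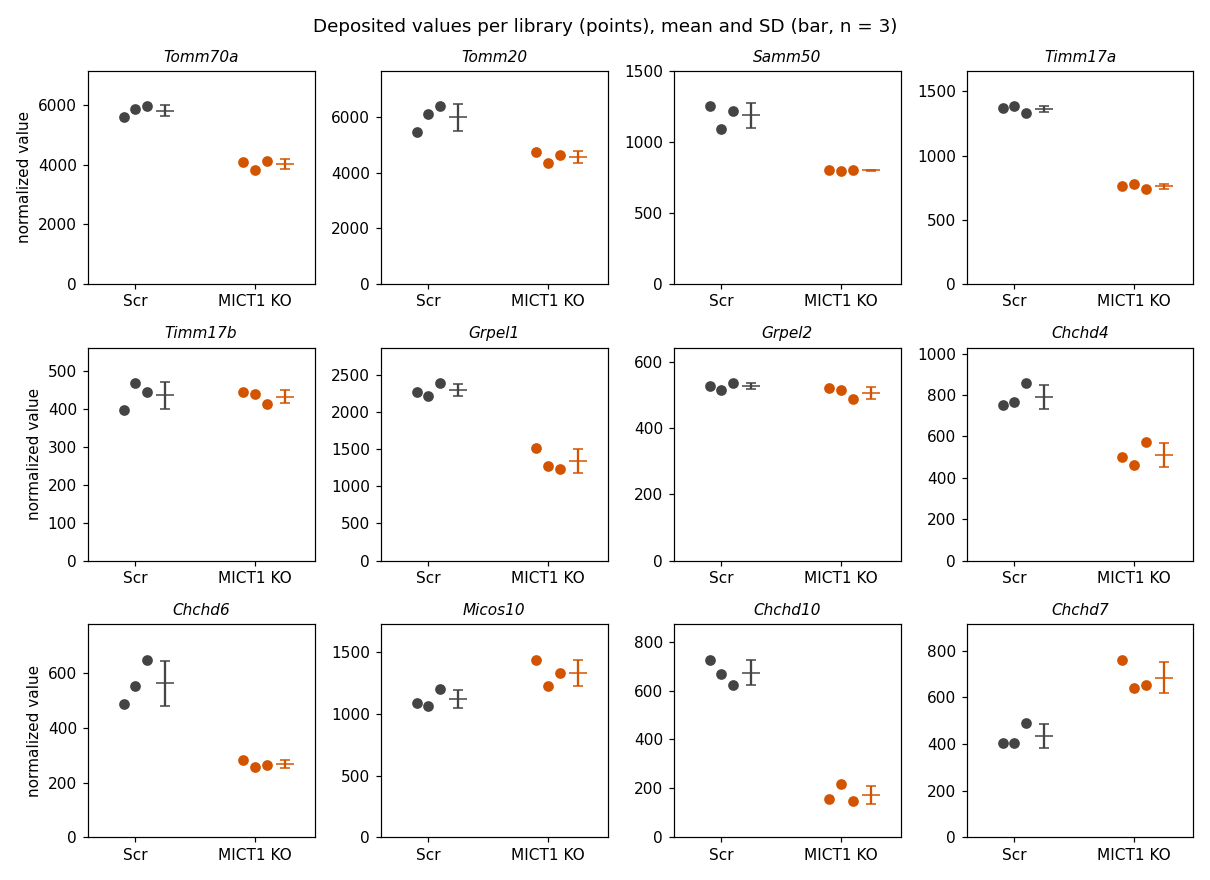
Deposited normalized values (vertical axis, starting at 0) of 12 members in the 3 Scr (grey) and 3 MICT1 KO libraries (orange), with the mean and SD beside the points. Timm17a and Grpel1 separate by group while Timm17b and Grpel2 do not, and Micos10 and Chchd7 are higher in MICT1 KO libraries.

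In the intermembrane space the relay and one of the small TIM pairs fell. Chchd4 (chromosome 6, from 91464276 to 91473423), the oxidoreductase of the MIA pathway that folds small proteins with paired cysteines, read 749.7, 768 and 858 (Scr) against 499, 461 and 574 (MICT1 KO). Every MICT1 KO value was below every Scr value, and the log2 fold change was -0.63 (SE 0.095, limma-trend adjusted p = 8.45e-06). Timm9 (chromosome 12, from 71123172 to 71136708) and Timm10 (chromosome 2, from 84827021 to 84830213) form the main chaperone ring of this space. Timm9 read 502, 461 and 511 (Scr) against 376, 318 and 331 (MICT1 KO), without overlap, a log2 fold change of -0.53 (SE 0.11, limma-trend adjusted p = 0.000235). Timm10 read 494, 514 and 564 (Scr) against 402, 392 and 489 (MICT1 KO), with a KO replicate 3 value close to the lowest Scr value, and a log2 fold change of -0.30 (SE 0.11, limma-trend adjusted p = 0.0214). Its call was lost without Scr replicate 3, KO replicate 1 or KO replicate 2 (adjusted p of 0.0930, 0.0651 and 0.0886).

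Timm8a1, Timm8b and Timm13 form the other small TIM rings. Timm8b (chromosome 9, from 50603901 to 50605320) read 608, 581 and 554 (Scr) against 544, 487 and 458 (MICT1 KO), a fall of 14.7% with a log2 fold change of -0.23 (SE 0.095, limma-trend adjusted p = 0.0444). The groups lay next to each other, and the call was lost with library sums as the scaling (adjusted p = 0.0513) and without Scr replicate 1, Scr replicate 2, KO replicate 2 or KO replicate 3 (0.0927 to 0.176). Timm8a1 read 1890.2, 2031 and 1966 (Scr) against 1856, 1690.0 and 1919.7 (MICT1 KO), which overlap, with a log2 fold change of -0.11 (SE 0.064) and no call. Timm13 had -0.15 (SE 0.080), also with overlap and no call. Timm10b, which docks the ring on TIM22, had -0.071 (SE 0.10). It shares 22.1% of its exon bases with other genes, and in 2 libraries its value was not a whole number of reads.

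Of the 7 genes of TIM23 and TIM22 5 were called lower. Timm17a (chromosome 1, from 135301535 to 135313737), which lies at the TIM23 channel, read 1367, 1384 and 1335 (Scr) against 766, 775 and 738 (MICT1 KO). The MICT1 KO values were close together and all far below Scr. This was a fall of 44.2%, with a log2 fold change of -0.84 (SE 0.070, limma-trend adjusted p = 1.70e-09), the smallest p among the inner membrane genes. Timm50 (chromosome 7, from 28305516 to 28312046), the receptor that hands preproteins from TOM to TIM23, read 1235, 1251 and 1365 (Scr) against 947, 859.8 and 957 (MICT1 KO). Timm21, which joins TIM23 to TOM and to the respiratory chain, read 401, 385 and 410.1 (Scr) against 300.3, 251 and 312 (MICT1 KO). In both genes the groups stood apart, with log2 fold changes of -0.48 (SE 0.073, limma-trend adjusted p = 1.17e-05) and -0.47 (SE 0.12, limma-trend adjusted p = 0.00153). Timm23 (chromosome 14, from 32180166 to 32201891), the channel partner of Timm17a, read 1255, 1381 and 1364 (Scr) against 1246, 979 and 1156 (MICT1 KO). KO replicate 1 lay just under the lowest Scr value, and the log2 fold change of -0.25 (SE 0.082, limma-trend adjusted p = 0.0135) lost its call without Scr replicate 2 (adjusted p = 0.0638) or KO replicate 2 (-0.15, adjusted p = 0.107).

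The TIM22 branch serves carriers. Timm29, a subunit of TIM22, read 1561, 1589 and 1569 (Scr) against 1409, 1392 and 1415 (MICT1 KO). Both groups were tight. A fall of 10.7% passed with a log2 fold change of -0.16 (SE 0.062, limma-trend adjusted p = 0.0301), and it kept the call only in the fit without KO replicate 1 (adjusted p = 0.0458) among the 6 that left out a library (up to 0.0872). Timm22, the carrier channel, had -0.14 (SE 0.10) with overlapping groups, and passed only without KO replicate 1 (-0.25, adjusted p = 0.0400 from limma-trend). Timm17b, the relative of Timm17a, read 397, 467 and 443 (Scr) against 443, 438 and 413 (MICT1 KO). Its groups overlapped, and its log2 fold change was -0.011 (SE 0.10).

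Of the motor genes 3 of 4 fell. Pam16 (chromosome 16, from 4616466 to 4624946), the brake on the chaperone cycle of the motor, read 47.5, 51.9 and 75.3 (Scr) against 31.5, 17.9 and 24.9 (MICT1 KO). No MICT1 KO value reached the Scr range, but the values rest on few reads, and the log2 fold change was -1.21 (SE 0.32, limma-trend adjusted p = 0.00331). Grpel1 (chromosome 5, from 36465185 to 36474077), the nucleotide exchange factor of the matrix chaperone Hspa9, read 2277, 2223 and 2392 (Scr) against 1524, 1273 and 1229 (MICT1 KO). This was a fall of 41.8% with a log2 fold change of -0.78 (SE 0.074, limma-trend adjusted p = 1.39e-08), and the groups were far apart. Reads of Grpel1 were not whole numbers in any library. Timm44 (chromosome 8, from 4259731 to 4275905), the tether of the motor to the channel, read 998, 959 and 905 (Scr) against 826, 691 and 753 (MICT1 KO). Its groups did not overlap, and its log2 fold change was -0.34 (SE 0.082, limma-trend adjusted p = 0.00153). Grpel2, the relative of Grpel1, read 527, 515 and 535 (Scr) against 521, 513 and 486 (MICT1 KO). Here the groups overlapped, with a log2 fold change of -0.054 (SE 0.090).

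Among the peptidases that trim imported proteins, both MPP genes fell and neither gene of the inner membrane peptidase passed. Pmpcb (chromosome 5, from 21737160 to 21757152), the catalytic subunit of MPP in the matrix, read 1293, 1324 and 1411 (Scr) against 1088, 1011 and 959.8 (MICT1 KO). Pmpca (chromosome 2, from 26389348 to 26397121), its partner that holds the substrate, read 2239.7, 2298 and 2219.5 (Scr) against 2054, 1797 and 1862 (MICT1 KO). Both fell without overlap, with log2 fold changes of -0.40 (SE 0.072, limma-trend adjusted p = 7.85e-05) and -0.24 (SE 0.063, limma-trend adjusted p = 0.00243). Pmpca shares 20.4% of its exon bases with other genes, and its values were not whole numbers of reads. Immp1l and Immp2l are the inner membrane peptidase. Immp1l read 211, 159 and 229 (Scr) against 191, 118 and 147 (MICT1 KO), and Immp2l read 67.3, 95.5 and 75.3 (Scr) against 88.7, 36.9 and 51.8 (MICT1 KO). In both genes KO replicate 1 lay within the Scr range and KO replicates 2 and 3 below it. The log2 fold changes of -0.40 (SE 0.18) and -0.50 (SE 0.29) did not pass (adjusted p of 0.0707 and 0.147 from limma-trend), and without KO replicate 1 they did (-0.58 and -0.83, adjusted p of 0.0134 and 0.0175). Immp1l also passed without Scr replicate 2 (-0.56, adjusted p = 0.0262).

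Whether the machinery of the outer and of the inner membrane moved alike was compared over 12 genes of TOM and SAM and 13 genes of TIM23, TIM22, the motor and the inner membrane peptidase. In the outer list 6 genes were lower, and in the inner list 8. By limma-trend 0 genes of either list were higher, and 0 were so at an unadjusted p under 0.05 or by limma-voom. The median log2 fold change was -0.20 in the outer and -0.40 in the inner list. The difference was 0.20. Taken in single libraries, the difference of medians had an SD of 0.17, pooled over both groups, which is not the error of the 0.20. No p is given, since the members were chosen with results known.

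**Figure D3:**
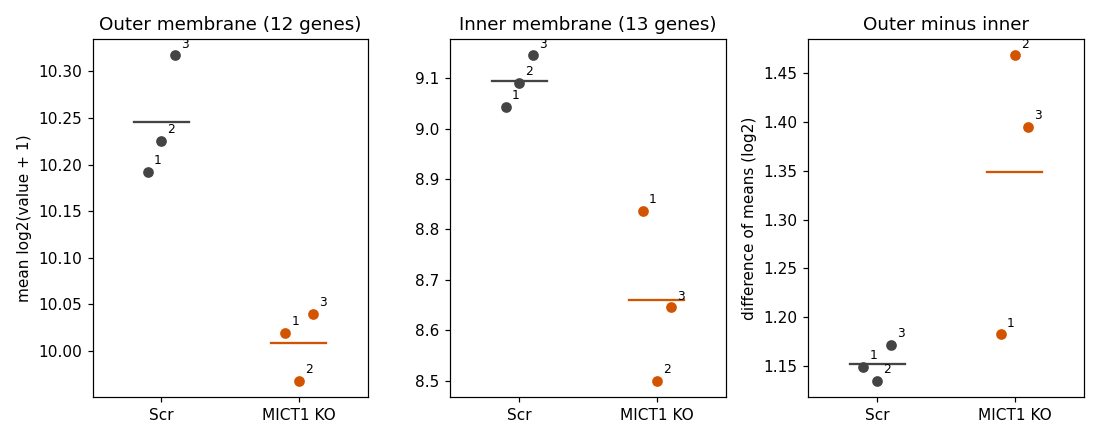
Mean log2(value + 1) of the 12 outer and 13 inner membrane genes in each library, and the outer minus the inner mean (numbers beside the points are replicates, lines are group means). Both means are lower in each MICT1 KO than in each Scr library, and in the difference KO replicate 1 (1.18) lies next to the Scr libraries (1.13 to 1.17).

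Library by library the outer mean was 10.19, 10.23 and 10.32 for Scr against 10.02, 9.97 and 10.04 without MICT1, on the scale of log2(value + 1). The inner mean was 9.04, 9.09 and 9.15 for Scr against 8.84, 8.50 and 8.65 without MICT1. The outer minus the inner mean was thus 1.15, 1.13 and 1.17 for Scr against 1.18, 1.47 and 1.39 without MICT1, so that the groups did not overlap but KO replicate 1 stood just above Scr replicate 3. KO replicate 2 decided much of the difference of medians. Without it the inner median was -0.23 and the difference 0.029, and without KO replicate 1 the difference was 0.33. Without Pam16, Immp1l and Immp2l, the 3 inner genes with the lowest values, the inner median was -0.29 and the difference 0.088, a choice made after the values were seen. In that list the differences of means in MICT1 KO libraries, 0.44, 0.56 and 0.56, overlapped with those in Scr of 0.38, 0.37 and 0.46. With the small TIM and MICOS genes counted as inner the difference of medians was 0.15. The difference between the lists thus depended on few genes and libraries.

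Among the cristae genes 3 MICOS members fell and 1 rose. Chchd6 (chromosome 6, from 89383146 to 89595652), a MICOS subunit of the intermembrane space, read 488, 553 and 649 (Scr) against 284, 256 and 265 (MICT1 KO). The highest MICT1 KO value was far under the lowest Scr value, and the log2 fold change was -1.06 (SE 0.12, limma-trend adjusted p = 1.05e-07). Chchd3 (chromosome 6, from 32792207 to 33060273), the more abundant relative that ties MICOS to Samm50, read 1459, 1464 and 1544 (Scr) against 1095, 1067 and 1272 (MICT1 KO), a log2 fold change of -0.38 (SE 0.074, limma-trend adjusted p = 0.000160). Micos13 (chromosome 17, from 56607452 to 56609771), a small subunit that helps assemble the complex, read 674, 593 and 569 (Scr) against 393, 531 and 505 (MICT1 KO). The lowest value was that of KO replicate 1, and the log2 fold change of -0.37 (SE 0.11, limma-trend adjusted p = 0.00732) lost its call without Scr replicate 1 (adjusted p = 0.0523) or KO replicate 1 (-0.24, adjusted p = 0.0550). Micos10 (chromosome 4, from 139101814 to 139131113), the subunit that bends the membrane at the neck of the crista, went the other way with 1089, 1067 and 1206 (Scr) against 1438, 1227 and 1334 (MICT1 KO). The highest Scr value lay close below the lowest MICT1 KO value, and the log2 fold change was 0.25 (SE 0.075, limma-trend adjusted p = 0.00780), called higher with each library left out.

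The other Chchd genes held both ends of the range. Chchd10 (chromosome 10, from 75933130 to 75937750), a protein of the intermembrane space tied to cristae and to the stress response of mitochondria, read 725, 669 and 624 (Scr) against 158, 217 and 149 (MICT1 KO). This was the largest fall of the 46 members, 74.2%. Its log2 fold change was -1.95 (SE 0.13, limma-trend adjusted p = 6.85e-11), and no value came near the other group. Chchd2, its abundant relative, read 5491, 5820.0 and 5837 (Scr) against 4899, 4563 and 4728 (MICT1 KO). It too fell without overlap, with a log2 fold change of -0.27 (SE 0.054, limma-trend adjusted p = 0.000193), and the reads of Chchd2 were not whole numbers in 5 libraries. The annotation names 1 pseudogene after Chchd2. Chchd7 (chromosome 4, from 3938840 to 3951383) read 405, 404 and 493 (Scr) against 761, 639.5 and 655 (MICT1 KO), the largest rise of the 46 members. Its groups did not overlap, and its log2 fold change was 0.66 (SE 0.10, limma-trend adjusted p = 1.31e-05). Chchd1, a subunit of the mitochondrial ribosome, had 0.044 (SE 0.12), and Chchd5 had 0.20 (SE 0.15), neither with a call.

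Tomm34 and Timmdc1 did not pass, and the antisense transcript Tomm6os did. Tomm34, a chaperone of the cytosol, had 0.076 (SE 0.092), and Timmdc1, an assembly factor of respiratory complex I, had 0.046 (SE 0.13). Tomm6os, whose gene overlaps Tomm6, read 24.8, 35.3 and 23.5 (Scr) against 7.64, 13.7 and 18.7 (MICT1 KO). Its log2 fold change of -1.06 (SE 0.44, limma-trend adjusted p = 0.0438) rests on few reads, and 5 of the 6 fits that left out a library lost the call (adjusted p of 0.0601 to 0.170), all except that without KO replicate 3. The study's methods describe strand-specific libraries, but no source states whether counting used the strand. Since 51.3% of the exon bases of Tomm6os lie in exons of other genes, how far its reads were kept apart from those of Tomm6 was not tested.

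**Figure D4:**
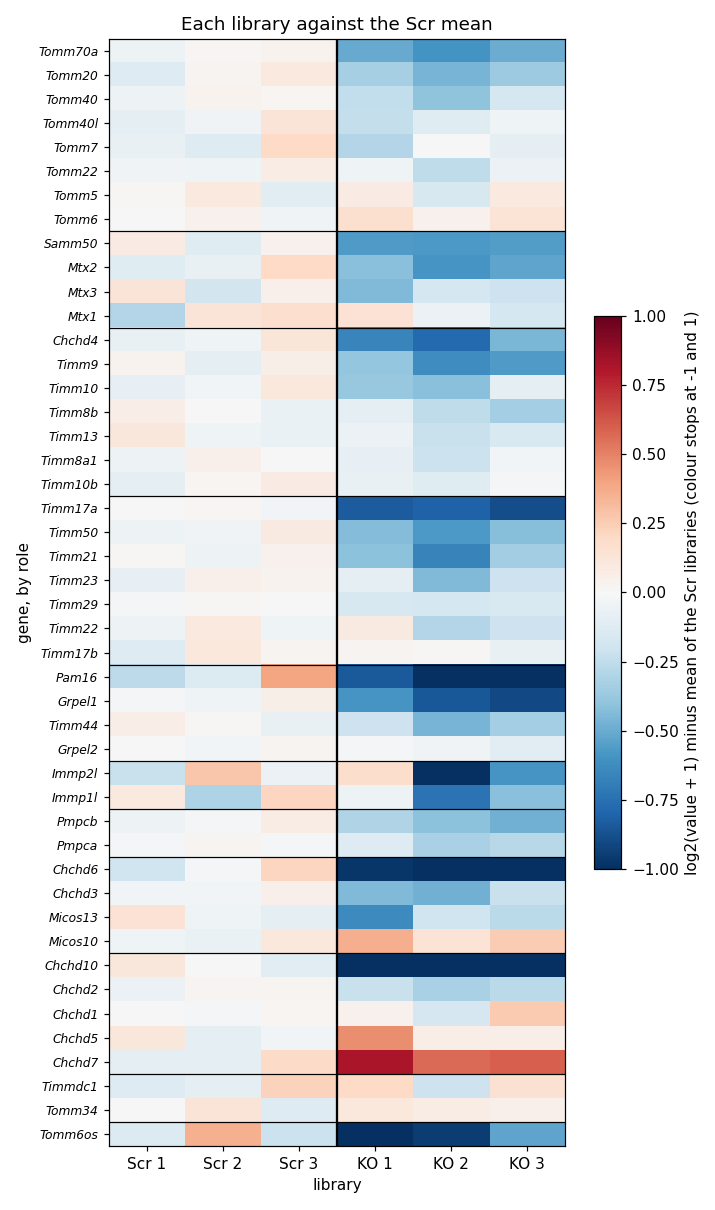
Each member (rows, by role) in each library (columns), as log2(value + 1) minus the mean of the 3 Scr libraries, in blue where lower and red where higher, with colour stopping at -1 and 1. Blue fills most rows of the MICT1 KO columns, most deeply in Chchd10 and Chchd6, while Chchd7 and Micos10 are red.

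Related members were compared within each library, as the log2 value of one minus that of the other, in 9 pairs. An exact permutation test (two-sided) of 3 against 3 libraries cannot give p below 0.1, so none of the pairs could pass. Among all genes tested the groups stood fully apart downward in 31.2% and upward in 30.9%. They overlapped in 4747 of the 12507 genes tested, so most single genes stood apart in either direction. How often pairs of genes in general stand apart was not computed. The log2 ratio of Timm17a to Timm17b was 1.65 ± 0.12 (SD, n = 3) for Scr and 0.82 ± 0.026 (SD, n = 3) without MICT1, a change of -0.83 (exact p = 0.1, adjusted 0.15 over the 9 pairs). In Scr cells Timm17a and Timm17b were at 10.5 ± 0.216 (SD, n = 3) and 10.4 ± 0.697 (SD, n = 3) RPKM. In MICT1 KO cells Timm17a was at 5.90 ± 0.141 (SD, n = 3) and Timm17b at 10.3 ± 0.353 (SD, n = 3) RPKM. The like levels in Scr rest on the exon lengths used, 7893 bases for Timm17a and 2557 for Timm17b. Before division by length the Scr values were 1362 ± 24.8 (SD, n = 3) and 435 ± 35.8 (SD, n = 3). For Grpel1 and Grpel2 the log2 ratio went from 2.12 ± 0.029 (SD, n = 3) to 1.40 ± 0.13 (SD, n = 3), a change of -0.73 (exact p = 0.1, adjusted 0.15). In both pairs the first gene was called lower, and the second had overlapping groups and no call.

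In the Chchd pairs both relatives were called lower. The log2 ratio of Chchd2 to Chchd10 rose from 3.09 ± 0.15 (SD, n = 3) to 4.77 ± 0.33 (SD, n = 3), and that of Chchd3 to Chchd6 from 1.41 ± 0.17 (SD, n = 3) to 2.09 ± 0.16 (SD, n = 3), with no overlap in either (exact p = 0.1, adjusted 0.15 for each). The log2 ratio of Mtx1 to Mtx2 changed by 0.48 and that of Pmpca to Pmpcb by 0.15, also without overlap (exact p = 0.1, adjusted 0.15 for each). In the remaining pairs the groups overlapped. The change was -0.14 for Tomm40 and Tomm40l (exact p = 0.2, adjusted 0.257), 0.12 for Timm8a1 and Timm8b (exact p = 0.6, adjusted 0.675) and 0.10 for Immp1l and Immp2l (exact p = 0.8, adjusted 0.8).

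**Figure D5:**
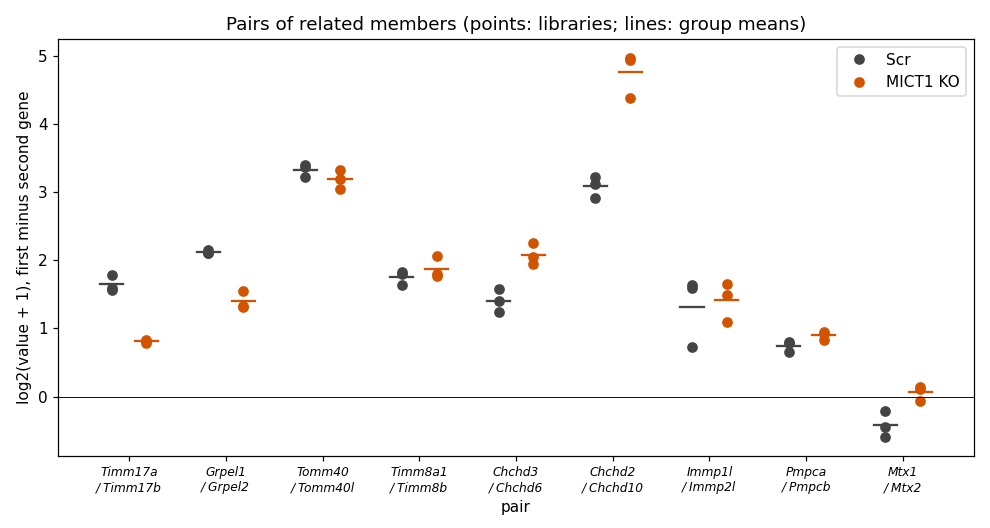
For 9 pairs of related members, the log2(value + 1) of the first minus that of the second gene in each Scr (grey) and MICT1 KO library (orange), with lines at the group means. Scr and MICT1 KO libraries separate in 6 of 9 pairs, downward for Timm17a/Timm17b and Grpel1/Grpel2 and upward for Chchd2/Chchd10, Chchd3/Chchd6, Mtx1/Mtx2 and Pmpca/Pmpcb. Single genes separated in 31.2% (below) and 30.9% (above) of those tested and overlapped in 4747 of 12507. Separation was thus common, and no share was computed for pairs in general.

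Partners of this machinery whose symbols fall outside the rule were counted from a list of 35 other genes of import, cristae and protein handling. Of these, 19 (54.3%) were called lower and 4 (11.4%) higher, beside 28.3% and 28.5% of all genes, with a median log2 fold change of -0.21. The motor and matrix chaperones were lower in 4 of 5, namely Dnajc19, Hspd1, Hspe1 and Hspa9, the chaperone that Grpel1 serves, which went from 18068 ± 233 (SD, n = 3) in Scr down to 13962 ± 409.9 (SD, n = 3) with a log2 fold change of -0.37 (SE 0.051, limma-trend adjusted p = 2.50e-06). Of 9 further MICOS and cristae genes 6 fell and the other 3 had no call. Immt, the central MICOS subunit, read 4289.6, 4110.2 and 4284 (Scr) against 3402, 2979 and 3069 (MICT1 KO), without overlap and with a log2 fold change of -0.43 (SE 0.059, limma-trend adjusted p = 2.93e-06). Opa1, the fusion protein that keeps cristae narrow, read 1455, 1273 and 1512 (Scr) against 1208, 1315 and 1167 (MICT1 KO), with overlapping groups and a log2 fold change of -0.20 (SE 0.075, limma-trend adjusted p = 0.0301).

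Insertion and channel genes were lower in 4 of 10 (Oxa1l, Romo1, Gfer and Vdac3) and higher in 2, the carrier-like Mtch1 (0.58, SE 0.056) and the porin Vdac1 (0.18, SE 0.052). Oxa1l, the insertase of the inner membrane, had the largest fall of the list, from 846 ± 60.2 (SD, n = 3) in Scr down to 491 ± 37.5 (SD, n = 3), with a log2 fold change of -0.79 (SE 0.090, limma-trend adjusted p = 2.17e-07). Processing and quality control proteases and their partners were lower in 5 of 11 (Afg3l2, Mipep, Clpx, Lonp1 and Clpp) and higher in 2, Spg7 and Htra2 (0.34, SE 0.10). The subunits of the m-AAA protease went opposite ways, with Afg3l2 at 2196, 2249.8 and 2253 (Scr) against 1326, 1222 and 1354 (MICT1 KO) and Spg7 at 700.3, 625 and 622 (Scr) against 1087, 1026 and 1128 (MICT1 KO). In neither gene did the groups overlap, and the log2 fold changes were -0.78 (SE 0.063, limma-trend adjusted p = 1.15e-09) and 0.74 (SE 0.079, limma-trend adjusted p = 9.51e-08). Mipep, which trims presequences after MPP, fell with -0.65 (SE 0.16, limma-trend adjusted p = 0.00136). Clpx and Lonp1, both of the matrix, fell with -0.62 (SE 0.071, limma-trend adjusted p = 2.45e-07) and -0.60 (SE 0.051, limma-trend adjusted p = 2.76e-09). Apart from these 6 largest changes and Immt, Opa1 and Hspa9, the partners were named after their values were seen.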

How the data were processed

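RNA-seq of 3 Scr and 3 MICT1 KO libraries, grouped from the sample labels, was read from 1 table of the whole series with 0 columns left over. The authors deposited signal values, 1 for each gene symbol and library. Among values under 20, 88.7% to 90.3% were whole multiples, within 0.01, of 1 step per library, which gave the reads per library. They are not counts, so no count model was fitted. The study's methods name Partek for alignment to mm10, and the processing notes also name STAR. The annotation and the use of strand in counting are not given in the sources used here. The table lists genes above 0 in every library, and holds no comparison by the authors. MICT1 and some other genes are not reported here. The labels give no batch.

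A linear model of log2(value + 1) was fitted by limma-trend (limma 3.58.1 in R 4.3.3), with Benjamini-Hochberg adjustment at 0.05. It covered 12507 genes with 10 or more in 3 or more libraries. The fit was also run on simulated data in which few genes changed, unlike here, so that run does not measure the error of these calls. The scale of log2(value + 1) understates the change of low genes. CPM divides by the sum of a library, RPKM also by the length of all annotated exons of the gene in GENCODE vM21, found for all 46 members. Positions and promoters are those of RefSeq on GRCm38.p6. Reads of 41 members were whole, within 0.1, in all 6 libraries. The members, lists, pairs and motifs were chosen with earlier results of these data known, so no list was tested. Every member is named. Values in each library are given for called members (up to 4 per role and some beyond), pairs, Immp1l and Timm10. Partner genes named by rule are the 6 with the largest called changes, Immt, Opa1 and Hspa9, and others were named after their values were seen. Same-numbered Scr and MICT1 KO libraries did not deviate together (r of -0.024, -0.015 and 0.064 across genes), so the numbers were not taken as pairs. Alternatives were scaling by library sum or median ratio, limma-voom, pseudocounts of 0.5 and 5, no filter or one at 4 CPM, a replicate block, each library left out, and other inner membrane lists.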

Additional observations from a re-analysis of the deposited data

How the results depend on the processing

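Over the scalings, limma-voom, pseudocounts, filters and the replicate block, the counts of called members stayed within 1.5 times the reported ones and the medians within the spread between libraries. The replicate block gave 27 lower members and called Immp1l, and 2 of 6 libraries correlated best with their own number. Leaving out 1 library at a time gave 21 to 25 lower and 2 to 3 higher members, with a member median of -0.29 to -0.21, an outer median of -0.24 to -0.16, an inner median of -0.50 to -0.23 and an outer minus inner difference of 0.029 to 0.33. The member median and the inner median moved by more than the spread between libraries without KO replicate 2 (-0.21 and -0.23), and the cause was not tested. Of the 26 lower members 19 kept their call in every alternative, and Micos13, Mtx3, Timm10, Timm23, Timm29, Timm8b and Tomm6os lost it in at least 1. Immp1l, Immp2l, Timm22 and Tomm6 passed in at least 1 fit that left out a library. Members without a call turned sign when a library was left out. Without Scr replicate 1 Timmdc1 was at -0.019. Without Scr replicate 2 Mtx1 was at 0.035, Timm17b at 0.041, Timmdc1 at -0.0016 and the change of the Immp1l and Immp2l pair at -0.20. Without Scr replicate 3 Mtx1 was at 0.053, Timm17b at 0.0024 and Tomm5 at -0.046. Without KO replicate 1 Timmdc1 was at -0.029 and Tomm5 at -0.031, and without KO replicate 2 that pair was at -0.025. Without KO replicate 3 Chchd1 was at -0.064, Mtx1 at 0.044, Timm17b at 0.021, Timmdc1 at -0.0055 and Tomm5 at -0.038. Their ranges over these fits were -0.064 to 0.15 for Chchd1, -0.18 to 0.053 for Mtx1, -0.077 to 0.041 for Timm17b, -0.029 to 0.17 for Timmdc1, -0.046 to 0.089 for Tomm5 and -0.20 to 0.25 for the pair. The choice to leave out Pam16, Immp1l and Immp2l was made after seeing the data. Low genes such as Tomm6os, Pam16 and Immp2l rest on few reads, so that small differences were not detectable in them at this depth.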

Other observations

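Among the 3 MICT1 KO libraries, KO replicate 2 held the lowest value in 31 of the 46 members (67.4%), against 34.7% of all genes tested. Among the Scr libraries, Scr replicate 3 held the highest value in 25 members (54.3%), against 36.2%. The summed level of the 46 members was 3363, 3354 and 3485 CPM for Scr against 2860.3, 2646 and 2825 CPM for MICT1 KO.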
